A study of Homo sapiens with 44 samples.

Results

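The 34 genes described here belong to the Hippo pathway or are known targets of its output, the coactivators YAP and TAZ bound to TEAD transcription factors. They were chosen by gene symbol, 19 as pathway members and 15 as target genes, and all 34 were found among the 25689 gene symbols of both expression tables. In HEK293-GR cells lowered IRF2BP2 went with more RNA of the target genes CTGF, CYR61, ANKRD1 and AMOTL2 and of the kinase gene LATS2, and with less RNA of the upstream gene NF2. In A549 cells the authors' deposited table called the same 4 target genes lower after the knockdown under dex and under vehicle. CYR61 under TNF (-0.23), and CTGF (-0.10) and ANKRD1 (-0.22) under both agents, were not called in the authors' deposited table.

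In the Hippo pathway a kinase chain holds YAP and TAZ in check: STK3 and STK4, with the scaffold SAV1, activate LATS1 and LATS2, with their MOB1 partners, and the LATS kinases phosphorylate YAP and TAZ, which then leave the nucleus or are degraded. When the chain is quiet, YAP and TAZ enter the nucleus, bind TEAD factors and raise genes of growth, adhesion and matrix. Several targets, among them LATS2, AMOTL2 and PTPN14, encode inhibitors of YAP, so the pathway feeds back on itself. Cell density, stiffness of the surface and attachment are known to set its activity in cultured epithelial cells.

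The study lowered IRF2BP2, a transcriptional cofactor, and treated the cells with dexamethasone (dex), a synthetic glucocorticoid, or tumour necrosis factor (TNF). HEK293-GR is an isogenic derivative of the kidney-derived line HEK293 that constantly expresses the glucocorticoid receptor. A549 cells come from a lung adenocarcinoma. Cells in steroid-depleted medium received 20 nM of a small interfering RNA pool against IRF2BP2 (siIRF2BP2) or a non-targeting pool (siNON) for 72 h, and then 100 nM dex or ethanol vehicle for 6 h. A549 cells also received 10 ng/ml TNF, alone or with dex. The HEK293-GR groups were siIRF2BP2 with dex, siNON with dex, siIRF2BP2 with vehicle and siNON with vehicle, with 3 libraries each, and the replicate numbered 4 of each group was not analysed here. The A549 groups were dex, TNF, dex+TNF and vehicle with siIRF2BP2 or siNON, each given as 1 column in which the authors pooled the replicates. IRF2BP2 chromatin immunoprecipitation (ChIP) was made in HEK293-GR cells after 1 h of dex or vehicle, and the treatments listed for those samples name no small interfering RNA, although the series' shared protocol mentions transfection before ChIP.

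The knockdown was partial. IRF2BP2 stood at 9.64, 11.1 and 10.4 FPKM in siIRF2BP2 dex libraries, against 20.6, 20.0 and 19.3 FPKM in siNON dex libraries. With vehicle the values were 12.6, 11.8 and 13.7 FPKM with siIRF2BP2, against 23.4, 25.0 and 20.3 FPKM with siNON. The log2 fold change was -0.94 ± 0.08 under dex (limma adjusted p = 3.44e-06) and -0.84 ± 0.08 under vehicle (adjusted p = 1.87e-05). FPKM are fragments per kilobase of exon and per M tags in the library. For A549 cells its log2 fold changes in the authors' deposited table were -0.66 under dex, -0.40 under TNF, -0.62 under both agents and -0.31 under vehicle. HEK293-GR libraries held 18.2 to 28.5 M tags and A549 columns 35.8 to 56.9 M. Of 8 HEK293 markers, 7 averaged at least 1 FPKM in HEK293-GR cells. Of 9 A549 markers 4 did, among them KRT8 and KRT18, and KRT7 and KRT81 stayed under 0.1 FPKM in every HEK293-GR library. The A549 list summed to 160.4 to 207.3 FPKM in siIRF2BP2 dex libraries and 215.0 to 222.6 in siNON dex libraries, and to 112.0 to 126.7 with siIRF2BP2 and 116.7 to 137.0 with siNON under vehicle. S100P of that list stood at 51.8 to 74.4 FPKM over the dex libraries and 0.72 to 3.53 over the vehicle libraries. Of 5 blood markers 1, HBA1, averaged at least 1 FPKM, and PTPRC and CD3E stayed under 0.1 FPKM. The part of these markers in the results was not tested. In A549 columns KRT7 averaged 70170 reads and the lung lineage factor NKX2-1 2.63. The libraries siNON vehicle replicate 3 and siIRF2BP2 vehicle replicate 2 stood apart from their groups in several of the genes below, and their values are given where a result rests on them. Over all genes tested, their median absolute log2 distance from the group's other libraries was 0.188 and 0.146. For the other vehicle libraries this distance was 0.0934 to 0.147, so siIRF2BP2 vehicle replicate 2 did not stand apart by it. The study calls the replicates biological, but the labels do not tie each to a separate culture, so the p-values measure the spread between these libraries. In such bulk samples fewer cells that make an RNA and less RNA per cell cannot be told apart.

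The first question was what lowering IRF2BP2 changed among these genes in HEK293-GR cells. Each gene was tested with limma on log2 of FPKM plus 0.1 across 15593 genes, and a gene was called when its Benjamini-Hochberg adjusted p was under 0.05. All 34 members passed the filter on low reads. Under dex 19 of the 34 were called higher and 3 lower, where 22.4% of all genes tested were called higher and 17.3% lower. Under vehicle 12 were called higher and 2 lower, where 8.0% and 7.48% of all genes were. The members' median log2 fold change was 0.28 under dex and 0.22 under vehicle, beside 0.00 and 0.03 over all genes. Of the members called higher, 11 were called in both contrasts, and both genes called lower under vehicle, NF2 and WWC1, were also called lower under dex. TEAD2, TEAD3, STK4, AMOTL1, AXL, NT5E, ARHGEF17 and NUAK2 were the 8 members that limma called in no knockdown or dex contrast. On build hg19 the genes that the results turn on lie at chr6:132269317-132272518 (CTGF), chr1:86046444-86049648 (CYR61), chr10:92671857-92681032 (ANKRD1), chr3:134074187-134093427 (AMOTL2), chr13:21547176-21635722 (LATS2) and chr22:29999545-30094589 (NF2).

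**Figure D1:**
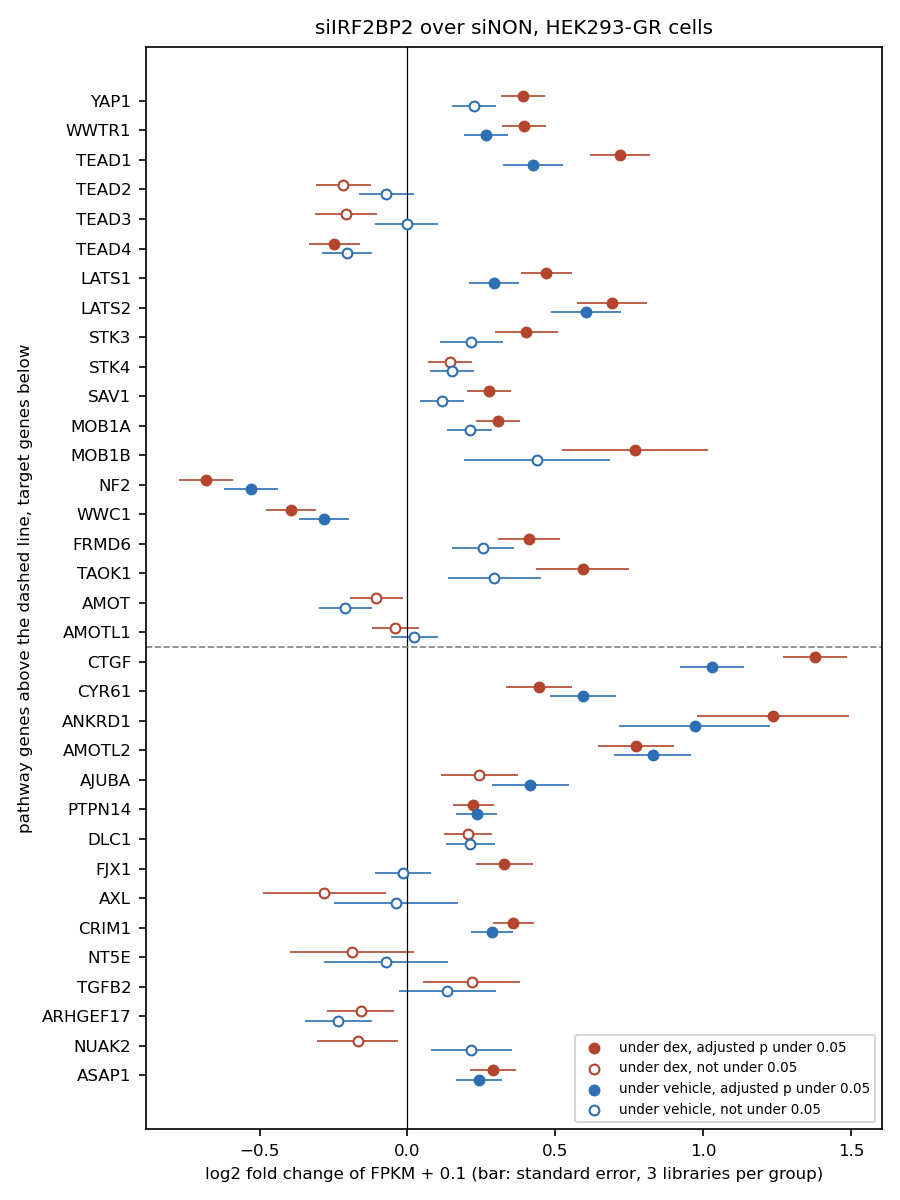
Log2 fold change (x axis) of each of the 34 genes (y axis) between siIRF2BP2 and siNON libraries of HEK293-GR cells, under dex and under vehicle, with bars for the standard error and filled points for an adjusted p under 0.05. CTGF at 1.38 under dex lies farthest right and NF2 at -0.68 under dex farthest left.

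CTGF, a secreted matricellular protein and one of the best known YAP targets, had the largest change. It stood at 10.3, 11.5 and 10.5 FPKM in siIRF2BP2 dex libraries, against 3.87, 4.45 and 3.92 FPKM in siNON dex libraries. Under vehicle it stood at 5.37, 4.25 and 5.35 FPKM with siIRF2BP2, against 2.54, 2.39 and 2.22 FPKM with siNON. The groups did not overlap under either treatment. The log2 fold change was 1.38 ± 0.11 under dex (limma, ± SE, adjusted p = 1.57e-06) and 1.03 ± 0.11 under vehicle (adjusted p = 2.49e-05).

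CYR61, a secreted relative of CTGF, moved the same way by less. It stood at 7.25, 6.93 and 7.80 FPKM in siIRF2BP2 dex libraries, against 5.44, 5.56 and 5.07 FPKM in siNON dex libraries. Under vehicle the values were 10.0, 8.23 and 10.8 FPKM with siIRF2BP2, against 7.14, 6.57 and 5.46 FPKM with siNON. No siIRF2BP2 library fell among the siNON libraries of its treatment. Its fitted log2 fold change was 0.44 ± 0.11 under dex (limma adjusted p = 0.00601) and 0.59 ± 0.11 under vehicle (adjusted p = 0.00277).

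ANKRD1, an ankyrin repeat protein of muscle and stressed cells, was the least abundant of these targets, with a mean of 40.6 reads per library. It stood at 0.963, 0.949 and 1.09 FPKM in siIRF2BP2 dex libraries, against 0.176, 0.556 and 0.461 FPKM in siNON dex libraries. In vehicle libraries the level was 1.48, 1.76 and 1.35 FPKM with siIRF2BP2, against 0.932, 0.570 and 0.719 FPKM with siNON. The groups did not overlap, while siNON dex replicate 1 lay well under its partners. The log2 fold change was 1.24 ± 0.26 under dex (limma adjusted p = 0.00199) and 0.97 ± 0.26 under vehicle (adjusted p = 0.0192). The vehicle call was lost without replicate 2 of either vehicle group, at 0.82 to 0.87 (limma adjusted p = 0.0749 to 0.0826).

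AMOTL2, an angiomotin family protein that binds YAP and holds it outside the nucleus, stood at 2.82, 3.24 and 3.15 FPKM in siIRF2BP2 dex libraries, against 1.90, 1.66 and 1.71 FPKM in siNON dex libraries. With vehicle the values were 4.34, 4.04 and 4.94 FPKM with siIRF2BP2, against 2.83, 2.51 and 2.06 FPKM with siNON. Again every siIRF2BP2 library was above every siNON library of the same treatment. Its fitted log2 fold change was 0.77 ± 0.13 under dex (limma adjusted p = 0.000551) and 0.83 ± 0.13 under vehicle (adjusted p = 0.000856).

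**Figure D2:**
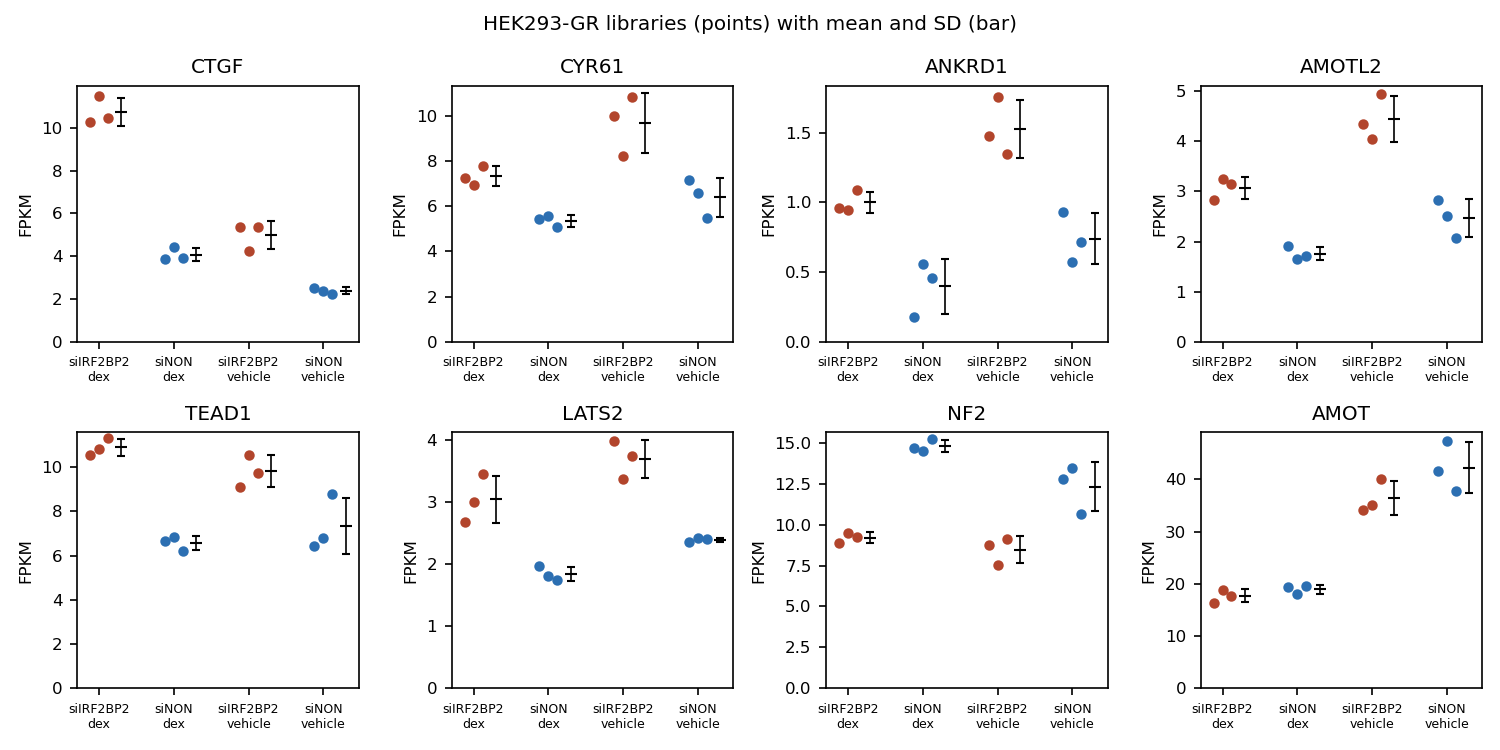
FPKM (y axis) of 8 of the genes in each HEK293-GR library, as points in groups along the x axis, with the mean and SD of 3 libraries beside them. For CTGF the siIRF2BP2 libraries lie above the siNON libraries of the same treatment, for NF2 below them, and for AMOT dex libraries lie below vehicle libraries with both small interfering RNAs.

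The promoters of CTGF and ANKRD1, and 1 of 2 promoters of AMOTL2, carry the letters that TEAD factors are known to bind. The core motif GGAATG was searched on both strands in windows from 250 bases before to 50 bases after each start, taken from RefSeq on build GRCh38.p14. Windows were found for 26 of the 34 genes, and 10 of these genes had the motif, as did 14.0% of all 35116 windows. By window the share was 28.6% of the 35 of these genes. CTGF (listed as CCN2) had 3 copies, starting at -169, -104 and -95 with the first transcribed base at +1, and ANKRD1 had copies at -220 and -128. At least 2 copies occurred in 1.37% of all windows. NUAK2, which limma called in no knockdown or dex contrast, also had 2 copies. AXL and TGFB2, with no knockdown call by limma, each had 1 window with the motif. AJUBA, LATS2, PTPN14 and YAP1 also had the motif, and limma called each higher in a knockdown contrast. Whether the motif goes with the knockdown change was not tested. AMOTL2 has 2 windows. The one printed holds 1 copy, on the other strand at -69, written CATTCC, and the window not printed holds 0. The AP-1 motif TGANTCA, at -195 in ANKRD1, occurred in 1 window each of ANKRD1, LATS1 and MOB1B. The 26 genes had 35 windows, and 7.71% of all windows held this motif. The palindromic glucocorticoid receptor motif, GNACA and TGTNC set 3 bases apart, was in none of the 26 genes' windows and in 0.390% of all windows. Neither motif overlapped a GGAATG in the sequences shown. A match describes these letters only. The 250 bases before the start are printed because they show how these motifs are spaced in the 3 targets, in lower case with the motifs in capitals, on the minus strand of chr6:131951373-131951622 (CTGF), chr10:90921088-90921337 (ANKRD1) and chr3:134374448-134374697 (AMOTL2).
CTGF: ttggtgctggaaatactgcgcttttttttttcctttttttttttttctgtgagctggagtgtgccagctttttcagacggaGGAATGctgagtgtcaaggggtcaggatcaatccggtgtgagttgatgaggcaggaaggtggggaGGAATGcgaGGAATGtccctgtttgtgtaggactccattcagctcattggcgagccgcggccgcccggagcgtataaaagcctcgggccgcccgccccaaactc
ANKRD1: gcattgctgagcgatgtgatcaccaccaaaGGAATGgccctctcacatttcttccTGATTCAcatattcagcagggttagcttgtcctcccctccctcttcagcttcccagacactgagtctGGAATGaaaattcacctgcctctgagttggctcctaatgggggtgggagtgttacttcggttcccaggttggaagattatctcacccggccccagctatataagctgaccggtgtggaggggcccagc
AMOTL2: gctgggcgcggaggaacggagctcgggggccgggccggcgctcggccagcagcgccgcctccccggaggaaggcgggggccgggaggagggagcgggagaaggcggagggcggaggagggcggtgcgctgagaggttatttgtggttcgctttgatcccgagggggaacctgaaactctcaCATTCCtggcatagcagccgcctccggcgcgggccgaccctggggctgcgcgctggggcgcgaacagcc

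The other 11 target genes changed by less than AMOTL2. AJUBA, a LIM protein that restrains LATS kinases, stood at 3.89, 3.81 and 4.18 FPKM in siIRF2BP2 dex libraries, against 3.17, 3.10 and 3.75 FPKM in siNON dex libraries. Under vehicle it stood at 6.32, 5.75 and 6.03 FPKM with siIRF2BP2, against 4.24, 5.70 and 3.77 FPKM with siNON, so siNON replicate 2 nearly reached the siIRF2BP2 libraries. Its log2 fold change was 0.24 ± 0.13 under dex, not called, and 0.41 ± 0.13 under vehicle (limma adjusted p = 0.0411), a call that was lost without any one of 10 of the 12 libraries, at 0.29 to 0.45 (adjusted p = 0.0517 to 0.137).

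CRIM1, a transmembrane regulator of bone morphogenetic proteins, rose by 0.36 ± 0.07 under dex and 0.29 ± 0.07 under vehicle. PTPN14, a phosphatase that binds YAP, rose by 0.22 ± 0.07 and 0.23 ± 0.07, and ASAP1, an Arf GTPase-activating protein, by 0.29 ± 0.08 and 0.24 ± 0.08. Leaving out single libraries ended the vehicle call of ASAP1 for 9 of the 12 (0.19 to 0.27), that of PTPN14 for 5 (0.21 to 0.26) and that of CRIM1 for siIRF2BP2 vehicle replicate 3 (0.23). The dex call of PTPN14 was lost without any one of 3 libraries (0.19 to 0.23). FJX1, whose fly relative modifies the cadherins Fat and Dachsous, rose under dex by 0.33 ± 0.10 and stood at -0.02 ± 0.10 under vehicle. Without siNON dex replicate 3 the dex value was 0.27, not called. The 6 target genes with no knockdown call by limma were DLC1, ARHGEF17, the receptor tyrosine kinase gene AXL, the ecto-nucleotidase gene NT5E, the growth factor gene TGFB2 and NUAK2, which encodes a kinase related to AMPK. Their log2 fold changes lay between -0.28 (AXL) and 0.22 (TGFB2) under dex and between -0.23 (ARHGEF17) and 0.22 (NUAK2) under vehicle. NT5E and AXL averaged 14.2 and 27.3 reads per library, so small changes in them were not detectable at this depth. DLC1 stood at 0.20 under dex, and limma called it there without siNON vehicle replicate 3 (adjusted p = 0.024). The authors' deposited table called DLC1 higher under dex (0.18, FDR 0.0181).

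Among the coactivators, both YAP1 and WWTR1, which encodes TAZ, rose under dex. YAP1 stood at 12.8, 13.3 and 12.8 FPKM in siIRF2BP2 dex libraries, against 10.3, 10.1 and 9.18 FPKM in siNON dex libraries. In vehicle libraries the level was 13.0, 13.3 and 13.3 FPKM with siIRF2BP2, against 10.4, 11.1 and 12.4 FPKM with siNON. The vehicle groups came close to each other through siNON replicate 3. For YAP1 the log2 fold change was 0.39 ± 0.07 under dex (limma adjusted p = 0.00119) and 0.22 ± 0.07 under vehicle, not called (adjusted p = 0.0521). Limma called YAP1 higher under vehicle without siNON vehicle replicate 3, at 0.29 (adjusted p = 0.00607). It also did so without that library and siIRF2BP2 vehicle replicate 2 together, at 0.28 (limma adjusted p = 0.0114).

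WWTR1 stood at 9.09, 10.5 and 10.0 FPKM in siIRF2BP2 dex libraries, against 7.54, 7.82 and 7.12 FPKM in siNON dex libraries. With vehicle the values were 10.6, 10.4 and 10.9 FPKM with siIRF2BP2, against 8.96, 8.48 and 9.10 FPKM with siNON. The groups did not overlap. The log2 fold change was 0.39 ± 0.07 under dex (limma adjusted p = 0.00118) and 0.27 ± 0.07 under vehicle (adjusted p = 0.0252), and the vehicle call was lost without siNON vehicle replicate 1 or 2 or any siIRF2BP2 vehicle library, at 0.24 to 0.28 (adjusted p = 0.0508 to 0.0922).

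The TEAD genes, whose products bind DNA for YAP and TAZ, did not move as one. TEAD1 stood at 10.6, 10.8 and 11.3 FPKM in siIRF2BP2 dex libraries, against 6.67, 6.85 and 6.21 FPKM in siNON dex libraries. Under vehicle it stood at 9.12, 10.6 and 9.73 FPKM with siIRF2BP2, against 6.43, 6.81 and 8.79 FPKM with siNON, where replicate 3 lay near the siIRF2BP2 libraries. Its log2 fold change was 0.72 ± 0.10 under dex (limma adjusted p = 0.000185) and 0.42 ± 0.10 under vehicle (adjusted p = 0.0123). The vehicle call was lost without siNON vehicle replicate 1 or 2 or siIRF2BP2 vehicle replicate 2, at 0.34 to 0.38 (adjusted p = 0.0539 to 0.0625). TEAD4 changed the other way, by -0.25 ± 0.09 under dex (adjusted p = 0.0309) and by -0.20 ± 0.09 under vehicle, not called. Limma called TEAD4 lower under vehicle without siNON vehicle replicate 3, at -0.26 (adjusted p = 0.0311). Leaving out siIRF2BP2 vehicle replicate 2 as well gave -0.20, not called (limma adjusted p = 0.106). Without siNON dex replicate 1 or 2 or siIRF2BP2 dex replicate 1 the dex call of TEAD4 was lost, at -0.24 to -0.20. TEAD2 and TEAD3 were not called by limma, at -0.22 and -0.21 under dex and at -0.07 and -0.00 under vehicle. The authors' deposited table called both lower under dex, at -0.24 (FDR 0.031) and -0.23 (FDR 0.0475). Limma called TEAD2 lower under dex without siNON vehicle replicate 3, at -0.22 (adjusted p = 0.0481).

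Of the kinase chain, the 2 LATS genes rose under both treatments. LATS2 stood at 2.68, 3.0 and 3.44 FPKM in siIRF2BP2 dex libraries, against 1.97, 1.81 and 1.74 FPKM in siNON dex libraries. In vehicle libraries the level was 3.98, 3.37 and 3.75 FPKM with siIRF2BP2, against 2.35, 2.42 and 2.41 FPKM with siNON. The groups lay well apart. For LATS2 the log2 fold change was 0.69 ± 0.12 under dex (limma adjusted p = 0.000616) and 0.60 ± 0.12 under vehicle (adjusted p = 0.00369).

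LATS1 stood at 9.59, 10.1 and 10.2 FPKM in siIRF2BP2 dex libraries, against 7.62, 7.36 and 6.54 FPKM in siNON dex libraries. With vehicle the values were 8.96, 10.0 and 9.51 FPKM with siIRF2BP2, against 7.29, 7.40 and 8.54 FPKM with siNON. LATS1 was thus the more abundant of the 2 kinases per length of RNA. Its log2 fold change was 0.47 ± 0.08 under dex (limma adjusted p = 0.000893) and 0.29 ± 0.08 under vehicle (adjusted p = 0.0298), and the vehicle call was lost without siNON vehicle replicate 1 or 2 or siIRF2BP2 vehicle replicate 2 or 3, at 0.25 to 0.29 (adjusted p = 0.0654 to 0.114).

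Of the partners of these kinases 4 of 5 rose under dex. STK3 rose by 0.40 ± 0.11, SAV1 by 0.28 ± 0.07, MOB1A by 0.31 ± 0.08 and MOB1B by 0.77 ± 0.25, while STK4 stood at 0.14 ± 0.07, not called. With all libraries none of these 5 was called under vehicle, where limma gave log2 fold changes from 0.12 (SAV1) to 0.44 (MOB1B), and MOB1A alone had an unadjusted p under 0.05 there. The dex call of SAV1 was lost without siNON dex replicate 3 (0.23), and that of MOB1B without that library or siIRF2BP2 dex replicate 1 (0.64 to 0.66). MOB1B shows the libraries that stood apart: it stood at 3.19, 2.42 and 2.63 FPKM in siIRF2BP2 dex libraries, against 1.60, 1.82 and 1.29 FPKM in siNON dex libraries. Under vehicle it stood at 2.78, 4.14 and 2.46 FPKM with siIRF2BP2, against 1.90, 1.58 and 3.63 FPKM with siNON, so the vehicle groups overlapped. Without siNON vehicle replicate 3 its vehicle log2 fold change was 0.78 (limma adjusted p = 0.00665), and without siIRF2BP2 vehicle replicate 2 it was 0.22 (adjusted p = 0.651). Without siNON vehicle replicate 3 limma also called STK3 (0.30), STK4 (0.21) and MOB1A (0.26) higher under vehicle. Without both libraries it called STK4 (0.23), MOB1A (0.26) and MOB1B (0.57) but not STK3 (0.18).

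Upstream of the kinases the genes split. NF2, which encodes the scaffold merlin that recruits LATS kinases to the membrane, stood at 8.88, 9.50 and 9.24 FPKM in siIRF2BP2 dex libraries, against 14.7, 14.5 and 15.2 FPKM in siNON dex libraries. In vehicle libraries the level was 8.78, 7.55 and 9.10 FPKM with siIRF2BP2, against 12.8, 13.5 and 10.6 FPKM with siNON. All siIRF2BP2 libraries were lower. Its fitted log2 fold change was -0.68 ± 0.09 under dex (limma adjusted p = 0.000116) and -0.53 ± 0.09 under vehicle (adjusted p = 0.00166). WWC1, which encodes KIBRA, a partner of merlin, fell by 0.39 ± 0.09 under dex and by 0.28 ± 0.09 under vehicle, though the vehicle call was lost without any one of 8 libraries, at -0.29 to -0.22.

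FRMD6, a FERM domain protein upstream of the kinases, stood at 5.72, 5.53 and 6.12 FPKM in siIRF2BP2 dex libraries, against 4.13, 4.18 and 4.70 FPKM in siNON dex libraries. With vehicle the values were 8.14, 8.19 and 7.61 FPKM with siIRF2BP2, against 6.32, 5.91 and 7.92 FPKM with siNON, where the groups overlapped through replicate 3. Its log2 fold change was 0.41 ± 0.10 under dex (limma adjusted p = 0.00645) and 0.25 ± 0.10 under vehicle, not called. Limma called FRMD6 higher under vehicle without siNON vehicle replicate 3, at 0.38 (adjusted p = 0.00512). It also did so without that library and siIRF2BP2 vehicle replicate 2 together, at 0.36 (limma adjusted p = 0.012). TAOK1, a kinase that phosphorylates STK3 and STK4, stood at 15.2, 14.2 and 14.0 FPKM in siIRF2BP2 dex libraries, against 10.0, 10.1 and 8.60 FPKM in siNON dex libraries. Under vehicle it stood at 12.5, 17.4 and 12.5 FPKM with siIRF2BP2, against 9.95, 9.48 and 15.7 FPKM with siNON, with the same 2 libraries high as for MOB1B. Its log2 fold change was 0.59 ± 0.16 under dex (adjusted p = 0.00863) and 0.29 ± 0.16 under vehicle, not called. The vehicle value of TAOK1 was 0.52 without siNON vehicle replicate 3 (limma adjusted p = 0.00326), 0.13 without siIRF2BP2 vehicle replicate 2 (adjusted p = 0.655) and 0.36 without both (adjusted p = 0.00487). AMOT and AMOTL1, the other angiomotins, were not called, at -0.11 and -0.04 under dex and at -0.21 and 0.02 under vehicle. Limma called AMOT lower under vehicle without siNON vehicle replicate 3, at -0.29 (adjusted p = 0.0225). Leaving out siIRF2BP2 vehicle replicate 2 as well gave -0.26, not called (limma adjusted p = 0.0566).

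Long genes moved with the knockdown across the whole table, and many of these genes are long. Under dex the median log2 fold change of all genes ran from -0.08 for exon lengths under 1.5 kb to 0.25 for lengths over 9 kb, where 40.5% of genes were called higher. Under vehicle it ran from -0.05 to 0.17. The shift also differed between libraries of a group. With each gene centred, the median over 9 kb minus that up to 1.5 kb was 0.06, 0.01 and 0.20 in siIRF2BP2 dex libraries. In siNON dex libraries it was -0.22, -0.21 and -0.25. Under vehicle the values were 0.09, 0.29 and 0.04 with siIRF2BP2 and -0.14, -0.12 and 0.05 with siNON. The source of this shift was not tested. CTGF, CYR61 and ANKRD1 lie in the class from 1.5 to 3 kb, where 15.8% of all genes and 5 of 8 members were called higher under dex. In the class from 3 to 6 kb it was 27.9% of all genes and 7 of 12 members, and from 6 to 9 kb 37.9% and 3 of 10. The 3 members over 9 kb, TEAD1, TAOK1 and PTPN14, were all called higher. With this length trend removed, the calls among the members were 16 higher and 5 lower under dex and 8 higher and 3 lower under vehicle. The share of all genes called in this corrected fit is not given. These counts thus describe the members only and cannot be set against the shares of the uncorrected fit. MOB1B (0.62), ASAP1 (0.17), TEAD4 (-0.19) and PTPN14 (-0.0042) were then no longer called under dex. Under vehicle LATS1 (0.20), AJUBA (0.37), PTPN14 (0.08), CRIM1 (0.19) and ASAP1 (0.17) were no longer called. TAOK1 stood at 0.36 under dex, where its adjusted p by limma was 0.0499. AMOT was newly called lower under both treatments, at -0.26 under dex and -0.31 under vehicle, AMOTL1 at -0.27 and ARHGEF17 at -0.31 under dex, and MOB1A higher under vehicle at 0.25. TEAD1 stayed called, at 0.49 under dex and 0.27 under vehicle.

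In the authors' deposited table for HEK293-GR cells the knockdown counts were 20 higher and 5 lower under dex (22.2% and 24.3% of all genes) and 5 higher and 1 lower under vehicle (2.01% and 3.40%). For dex the authors' deposited table called 1 higher and 9 lower with siIRF2BP2 (5.24% and 5.28%), and 1 higher and 10 lower with siNON (7.68% and 8.75%).

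**Figure D3:**
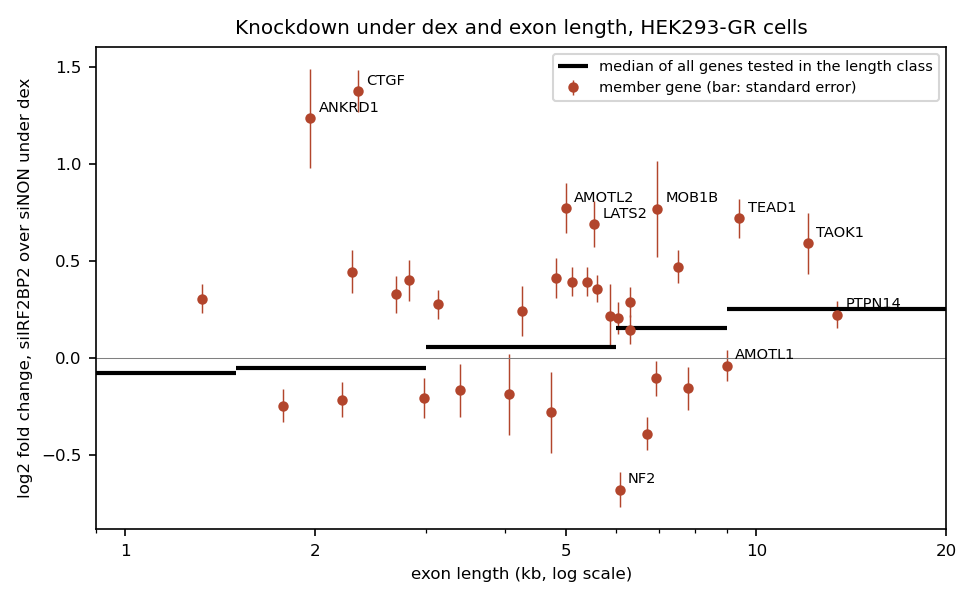
Log2 fold change between siIRF2BP2 and siNON under dex (y axis) against exon length in kb (x axis, log scale) for the 34 genes, with bars for the standard error and lines for the median of all genes tested in 5 length classes. The lines climb from -0.08 to 0.25, with CTGF and ANKRD1 far above the line of their class and NF2 far below it.

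Further genes of the pathway were read from 2 other lists. Of 8 more YAP and TEAD targets, 3 were called higher under dex and 5 under vehicle, and none lower, where 22.4% and 8.0% of all genes were called higher. Their median log2 fold change was -0.02 under dex and 0.36 under vehicle, beside 0.00 and 0.03 over all genes. They included RBMS3, an RNA-binding protein, at 0.97 under dex and 0.59 under vehicle, and CCDC80, a matrix protein, at 0.35 and 0.68. Of 42 more regulators, 40 were tested, of which 12 were called higher and 11 lower under dex, and 7 higher and 5 lower under vehicle. Of all genes 22.4% were called higher and 17.3% lower under dex, and 8.0% and 7.48% under vehicle, and the median of the 40 was -0.06 under dex and 0.01 under vehicle. ARRDC3, an arrestin family protein, rose by 1.27 under dex and 0.91 under vehicle. The cell polarity genes LLGL2 and SCRIB stood at -1.18 and -0.68 under dex and at -1.12 and -0.54 under vehicle, each called lower. WWC2, a relative of WWC1, changed in the direction opposite to it, by 0.64 under dex and 0.41 under vehicle.

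The second question was how dex itself moved these genes. With siIRF2BP2, 1 of the 34 was called higher and 9 lower, where 5.86% and 4.59% of all genes were. With siNON, 2 were called higher and 12 lower, where 10.9% and 9.82% of all genes were. The median log2 fold change with dex was -0.17 with siIRF2BP2 and -0.18 with siNON, beside 0.02 over all genes in both. CTGF was the gene called higher with both small interfering RNAs, and 8 genes were called lower with both.

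CTGF rose with dex by 1.10 ± 0.11 with siIRF2BP2 (limma adjusted p = 1.71e-06) and by 0.75 ± 0.11 with siNON (adjusted p = 8.80e-05). By the limma fit the largest fall among the 34 was that of AMOT, which binds YAP at cell junctions. In the authors' deposited table TGFB2 fell by more than AMOT. There TGFB2 stood at -1.16 with siIRF2BP2 and -1.28 with siNON, and AMOT at -1.07 and -1.17. AMOT stood at 16.4, 18.9 and 17.7 FPKM in siIRF2BP2 dex libraries, against 34.1, 35.1 and 40.1 FPKM in siIRF2BP2 vehicle libraries. With siNON it stood at 19.3, 18 and 19.7 FPKM under dex, against 41.6, 47.4 and 37.8 FPKM under vehicle. No dex library reached any vehicle library. The log2 fold change was -1.04 ± 0.09 with siIRF2BP2 (limma adjusted p = 3.80e-07) and -1.14 ± 0.09 with siNON (adjusted p = 8.92e-08).

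TGFB2 stood at 0.396 ± 0.0942 FPKM (SD, n = 3) under dex and 0.865 ± 0.0145 FPKM under vehicle with siIRF2BP2. With siNON it stood at 0.322 ± 0.0323 FPKM under dex and 0.781 ± 0.0768 FPKM under vehicle. Its log2 fold changes with dex were -0.98 ± 0.16 with siIRF2BP2 and -1.06 ± 0.16 with siNON. DLC1 changed by -0.72 and -0.71, FRMD6 by -0.46 and -0.61, AJUBA by -0.60 and -0.42, AMOTL2 by -0.52 and -0.46, WWC1 by -0.41 and -0.30 and CRIM1 by -0.25 and -0.32, each called lower with both. Single libraries ended the call of AMOTL2 with siIRF2BP2 (-0.46 to -0.44) and with siNON (-0.44 to -0.36), of AJUBA with siNON (-0.39 to -0.26), of WWC1 with siNON (-0.31 to -0.24) and of CRIM1 with siIRF2BP2 (-0.27 to -0.19). CTGF thus moved opposite to the other target genes that were called. CYR61 was called lower with siIRF2BP2 at -0.39 and stood at -0.24 with siNON, not called. ANKRD1 at -0.83, FJX1 at -0.57, LATS2 at -0.36 and WWTR1 at -0.24 were called lower with siNON, and stood at -0.56, -0.22, -0.28 and -0.11 with siIRF2BP2, not called. NF2 was called higher with siNON at 0.27, and stood at 0.12 with siIRF2BP2, not called. These calls were lost without any one of 4 libraries for CYR61 (-0.38 to -0.31), 3 for ANKRD1 (-0.83 to -0.45), 6 for LATS2 (-0.41 to -0.33), 4 for WWTR1 (-0.24 to -0.20) and 8 for NF2 (0.17 to 0.29).

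**Figure D4:**
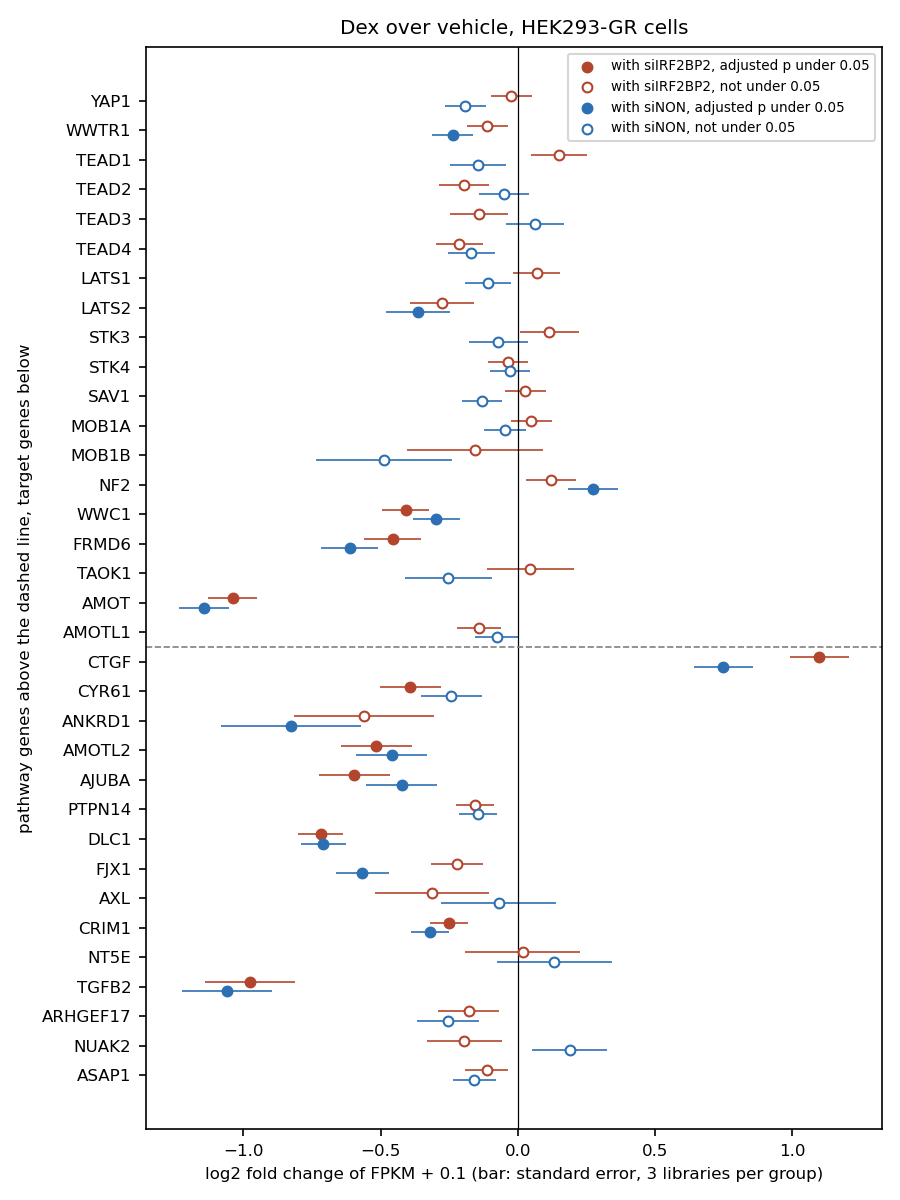
Log2 fold change with dex over vehicle (x axis) of each of the 34 genes (y axis) in HEK293-GR cells with siIRF2BP2 or siNON, with bars for the standard error and filled points for an adjusted p under 0.05. CTGF lies at 1.10 and 0.75, and AMOT and TGFB2 lie between -0.98 and -1.14.

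The difference of the 2 dex responses was called for none of the 34 genes. Over all genes limma called 2, both lower (0.0128%), with 805 of 15593 genes and 2 of the 34 at an unadjusted p under 0.05. Those 2 were FJX1 (difference 0.34 ± 0.13, limma adjusted p = 0.794) and CTGF (difference 0.35 ± 0.15, adjusted p = 0.794). Of the 20 genes called higher after the knockdown under either treatment, 8 were called lower with dex with siNON. The same overlap over all genes was not computed, so this count describes these genes only. The knockdown and dex contrasts share libraries, so these values are given side by side only.

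In A549 cells the values are the authors', and no spread between replicates could be computed. A549 lengths are genomic spans, so levels were not compared between genes. The authors' deposited table called 3 of the 34 genes higher and 13 lower after the knockdown under dex, where 16.2% and 17.6% of 15602 genes were. Under TNF it called 6 higher and 17 lower (21.0% and 20.4% of all genes), under both agents 6 and 10 (19.0% and 19.2%), and under vehicle 2 and 13 (17.3% and 19.3%). The members' median log2 fold change in it was -0.17 under dex, -0.22 under TNF, -0.06 under both agents and -0.12 under vehicle. The authors' log2 fold changes lay below the ratios of pooled FPKM by a median of 0.13 under dex and 0.12 under vehicle across abundant genes, and none of the members' 202 calls over 12 comparisons changed sign between the 2 scales.

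CTGF had 21.3 pooled FPKM with siIRF2BP2 and 23.2 with siNON under dex, 4.1 and 6.19 under TNF, 6.84 and 6.80 under both agents, and 9.99 and 15.5 under vehicle. The authors' deposited table gave it log2 fold changes of -0.26 under dex, -0.69 under TNF and -0.79 under vehicle, each called, and -0.10 under both agents, not called. CYR61 had 9.21 pooled FPKM with siIRF2BP2 and 18.3 with siNON under dex, 6.03 and 6.64 under TNF, 5.02 and 7.98 under both agents, and 8.23 and 13.2 under vehicle. The authors' deposited table gave it -1.13 under dex, -0.75 under both agents and -0.78 under vehicle, each called, and -0.23 under TNF, not called. CYR61 under dex was the 1 member whose knockdown change reached 1 on the log2 scale.

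ANKRD1 had 3.05 pooled FPKM with siIRF2BP2 and 3.75 with siNON under dex, 0.642 and 0.962 under TNF, 1.25 and 1.36 under both agents, and 0.890 and 1.32 under vehicle. AMOTL2 had 6.45 and 8.04 under dex, 3.39 and 4.72 under TNF, 5.10 and 5.97 under both agents, and 2.31 and 3.75 under vehicle. The authors' deposited table called ANKRD1 lower under dex (-0.47), TNF (-0.68) and vehicle (-0.73), and AMOTL2 under dex (-0.37), TNF (-0.56), both agents (-0.30) and vehicle (-0.81). YAP1 had 1.15 and 1.47 pooled FPKM under dex and 0.738 and 0.858 under vehicle, and the authors' deposited table called it lower under all 4 treatments, at -0.57, -0.26, -0.45 and -0.36. WWTR1 had 2.04 and 2.02 pooled FPKM under dex and 1.33 and 1.25 under vehicle, and that authors' deposited table called it lower under TNF at -0.21 and both agents at -0.40.

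Other members lower after the knockdown in A549 cells included FRMD6, which the authors' deposited table gave at -0.73 under dex, -0.77 under TNF, -0.50 under both agents and -0.83 under vehicle. AXL stood at -0.46, -0.54, -0.58 and -0.72, and TEAD3 at -0.56, -0.33, -0.43 and -0.45, each called lower under all 4 treatments in the authors' deposited table. PTPN14 was called higher under all 4, at 0.59, 0.40, 0.86 and 0.39, and LATS2 under all but vehicle, at 0.28, 0.53, 0.54 and 0.24, in the authors' deposited table.

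Set beside HEK293-GR cells under vehicle, 4 of the 34 genes had calls in opposite directions, CTGF, CYR61, ANKRD1 and AMOTL2. Of 14183 genes tested in both lines, 0.769% were called higher by limma in HEK293-GR cells and lower in the authors' deposited table for A549 cells, and 0.204% the other way. Their log2 fold changes were 1.03, 0.59, 0.97 and 0.83 in HEK293-GR cells and -0.79, -0.78, -0.73 and -0.81 in the authors' deposited table for A549 cells. NF2 and WWC1 were called lower in both lines, at -0.56 and -0.50 in the authors' deposited table, and PTPN14 was called higher in both, at 0.39 in it. The difference between the lines was not tested, because the A549 columns are pooled. The 2 lines also differed in the depth of the knockdown, and its part in the difference was not tested. In A549 cells under vehicle IRF2BP2 had 26.3 pooled FPKM with siIRF2BP2 and 29.7 with siNON, against 22.9 and 31.3 under dex.

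**Figure D5:**
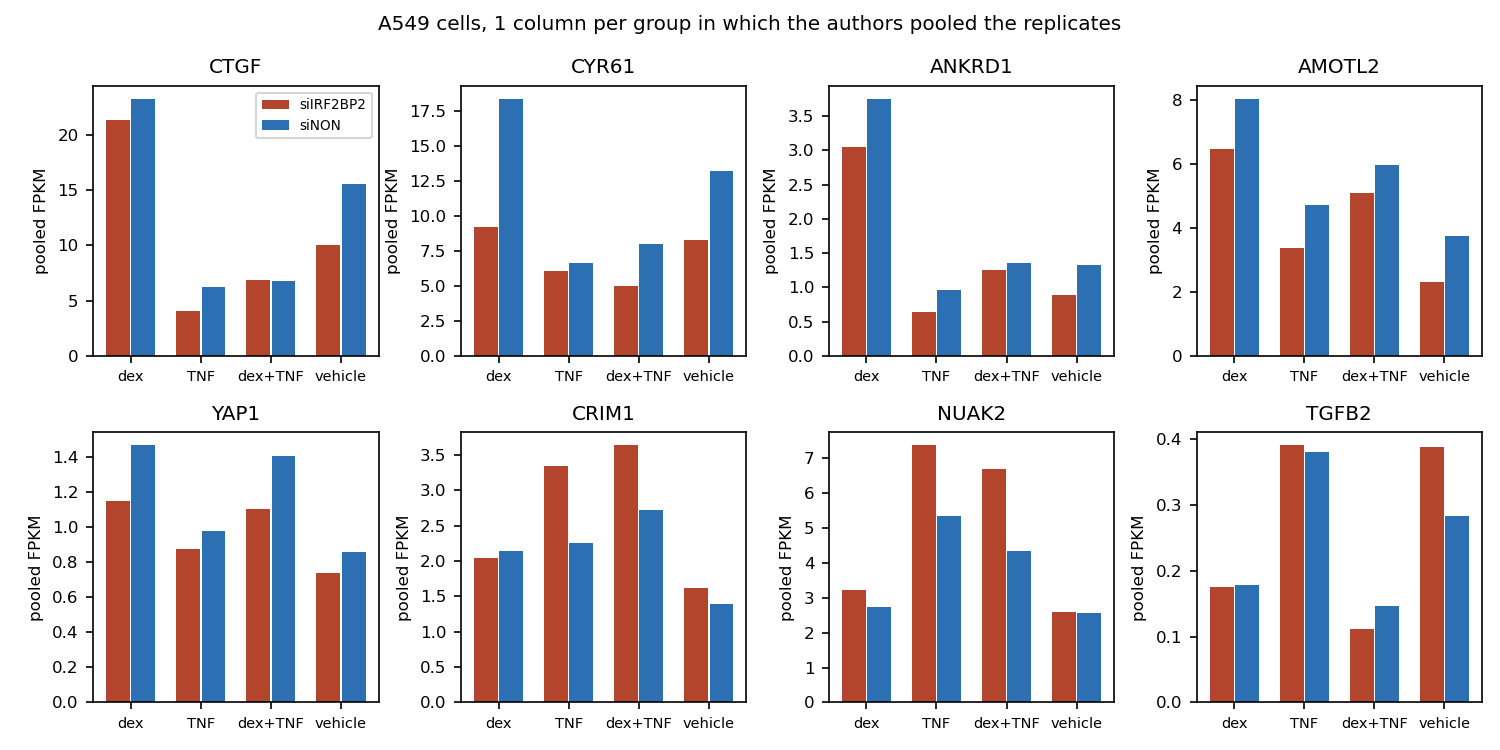
Pooled FPKM (y axis, from 0) of 8 of the genes in the 8 A549 groups (x axis), 1 bar per group, with no error because the authors pooled the replicates. CTGF, CYR61, ANKRD1 and AMOTL2 are lower with siIRF2BP2 under vehicle, and CTGF is lower under TNF than under vehicle with both small interfering RNAs.

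In the authors' deposited table dex with siIRF2BP2 raised 16 and lowered 4 (14.2% and 11.4% of all genes), and dex with siNON raised 10 and lowered 2 (6.54% and 4.66%). TNF raised 15 and lowered 7 with siIRF2BP2 (19.8% and 19.9%), and raised 13 and lowered 5 with siNON (10.8% and 10.0%). Both agents together raised 15 and lowered 8 with siIRF2BP2 (22.8% and 21.2%), and raised 8 and lowered 6 with siNON (12.3% and 10.2%). ANKRD1 and AMOTL2 rose with dex in A549 cells, by 1.83 and 1.54 with siIRF2BP2 and by 1.55 and 1.09 with siNON in the authors' deposited table. In HEK293-GR cells both stood lower with dex.

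CTGF rose with dex by 1.15 with siIRF2BP2 and 0.62 with siNON in the authors' deposited table, and TNF changed it by -1.14 and -1.23. NUAK2 had 7.37 pooled FPKM under TNF and 2.58 under vehicle with siIRF2BP2, and 5.35 and 2.58 with siNON, and the authors' deposited table gave rises of 1.65 and 1.16. CRIM1 had 3.35 pooled FPKM under TNF and 1.62 under vehicle with siIRF2BP2, and 2.26 and 1.39 with siNON, with rises of 1.15 and 0.80 in the authors' deposited table. TGFB2 had 0.112 pooled FPKM under both agents and 0.388 under vehicle with siIRF2BP2, and 0.146 and 0.284 with siNON, with changes of -1.65 and -0.91 in the authors' deposited table. YAP1 rose with dex by 0.68 and 0.87, and WWTR1 by 0.65 and 0.78, in the authors' deposited table. Dex added to TNF raised 10 and lowered 3 with siIRF2BP2 (14.0% and 12% of all genes), and raised 6 and lowered 4 with siNON (9.88% and 7.85%), in the authors' deposited table, with TGFB2 at -1.79 and -1.40. AMOT averaged 23.4 reads per A549 column and was called in none of these comparisons.

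The third question was where IRF2BP2 itself was found on chromatin. The authors' peak list after dex held 1400 peaks and that after vehicle 1108, 1 list per condition on build hg19. Within 10 kb of a start, 3 of the 34 genes had a peak after dex, where 1.25% of all genes in the table did, and 5 after vehicle, where 1.12% did. AMOTL2, FJX1 and TEAD1 had a peak in both lists, and DLC1 and PTPN14 after vehicle only as the lists give it, which was not tested. The AMOTL2 peaks lay at chr3:134093135-134093466 after dex and chr3:134093152-134093494 after vehicle, centred 127 and 104 bases inside the transcribed region. The TEAD1 peaks lay at chr11:12695813-12696144 after dex and chr11:12695814-12696156 after vehicle, centred 9 and 16 bases after the start.

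The FJX1 peaks lay farther off, at chr11:35643020-35643351 after dex and chr11:35643146-35643488 after vehicle, centred 3450 and 3582 bases after the start and so past the annotated end of the gene at 35642421. The PTPN14 peak lay at chr1:214725165-214725507, centred at -312 relative to the start, and the DLC1 peak at chr8:12987426-12987768, centred 3212 bases after it. Of these 5 genes, limma called AMOTL2, TEAD1 and PTPN14 higher after the knockdown under both treatments, FJX1 under dex and DLC1 under neither. With the length trend removed, PTPN14 was called under neither treatment, at -0.0042 under dex and 0.08 under vehicle. The share of called genes among all genes with a peak was not computed, so these calls describe the 5 genes only. The authors' deposited table called DLC1 higher under dex (FDR 0.0181), and did not call TEAD1 (FDR 0.0535) or PTPN14 (FDR 0.207) under vehicle. CTGF, CYR61, ANKRD1, LATS2 and NF2 had no peak within 10 kb in either list.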

How the data were processed

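The submitters' processing notes name FastQC, Trimmomatic 0.33, TopHat2, Bowtie2, HOMER and edgeR for RNA and HOMER 4.10.3, Bowtie 0.12.9, FastQC and bedtools for ChIP, all with build hg19 and without roles or order. Expression values are FPKM, per the file headers, which the authors scaled by a length and by each column's tags. The log2 fold changes and the p-value and FDR columns of the A549 table are the authors' deposited values, with the test not stated in the sources used here. The deposited peak files carry a score that was not used.

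In HEK293-GR cells FPKM times exon length gave whole reads, within 0.01 beyond rounding, for 99.5 to 100% of values checked. The 15593 genes that reached 10 reads in 3 or more libraries entered 1 limma fit (version 3.58.1 with a trend, R 4.3.3) of log2(FPKM + 0.1) over 12 libraries, with 8 residual degrees of freedom and Benjamini-Hochberg adjustment over all genes. The fit was tested on simulated data. A fold change on this scale understates the change of low genes. Read density reached at most 2.83 to 3.11 per base in each library and at most 0.932 in a member. Counting by strand is not stated in the sources used here, so reads of an overlapping gene could enter. In A549 cells the transcript with the most reads stood for each gene, and 15602 genes averaged at least 10 reads.

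The 34 genes, the other lists and the rules were chosen with earlier results of these data known. Values in every library are given for the 12 members with the largest change among those called in a knockdown contrast and for 5 members whatever their result. A549 pooled values are given for those 5 and for members that reached 1 on the log2 scale. AMOT and TGFB2 were described in more depth after their values were seen. Other alternatives were another pseudocount, no filter, median-of-ratios scaling, a replicate block, the compared groups alone and each library left out. A length correction in 20 bins and the authors' own comparison were chosen after seeing the data. So was the removal of siNON vehicle replicate 3 and siIRF2BP2 vehicle replicate 2 together. Promoter windows and motifs come from RefSeq tables. No hg19 genome was used here, so peak sequences are not printed.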

Additional observations from a re-analysis of the deposited data

How the results depend on the processing

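Counts of the 34 genes called in HEK293-GR cells moved most for the knockdown under vehicle, where 12 were called higher and 2 lower. With the replicate block these were 7 and 1, with only the compared groups fitted 5 and 1, and in the authors' deposited comparison 5 and 1. Leaving out each library in turn gave 5 to 17 higher and 1 to 4 lower, with 17 and 4 without siNON vehicle replicate 3, 5 higher without siIRF2BP2 vehicle replicate 2, and 16 higher without both. CTGF, CYR61, AMOTL2, LATS2 and NF2 were called under vehicle in all 19 alternatives of the limma fit. For the knockdown under dex, leaving out each library gave 16 to 20 higher and 2 to 4 lower, beside 19 and 3. The lower calls were 5 with only the compared groups, with the length correction and in the authors' comparison. The log2 fold change of PTPN14 under dex was -0.0042 with the length correction, not called, so its rise there was no longer seen. For dex with siNON, beside 2 higher and 12 lower, the higher calls were 1 with no filter on low values and with the replicate block. They were also 1 with only the compared groups, without both vehicle libraries named above and in the authors' comparison. The lower calls were 7 with only the compared groups and 7 to 12 with a library left out, and the higher calls then 1 to 2. For dex with siIRF2BP2, 6 to 9 were called lower and 1 higher with a library left out. No share over all genes is given for the alternative limma fits, so their counts describe the 34 genes only. Same-numbered libraries of 2 groups correlated at -0.377 to 0.261 in their deviations. Libraries with different numbers were not compared in this way, so whether the numbers pair the libraries was not tested.

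Asking for a log2 fold change of at least 1 in A549 cells left 0 knockdown calls higher or lower under each treatment except 1 lower under dex. For treatments it left 3 higher and 1 lower with dex, 2 and 1 with TNF and 3 and 1 with both agents with siIRF2BP2, and 2 and 0, 1 and 1, and 1 and 1 with siNON. The share of all genes that pass this fold change cut is not given, so these counts describe the members only. Within 50 kb, 5 of the Hippo genes had a peak after dex and 8 after vehicle. Within 2 kb, AMOTL2 and TEAD1 had a peak after dex, and 3 genes had a peak after vehicle. The share of all genes with a peak was computed for 10 kb only. The counts at 50 kb and 2 kb thus cannot be set against all genes. Where a call was lost, the cause was not tested. Fits without some groups or libraries also rested on fewer libraries. Depth limits NT5E and AXL in HEK293-GR cells and AMOT in A549 cells.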
